A study of Chlorocebus sabaeus with 3 samples.

Results

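The keratin family was described here in the cell-free RNA of vervet monkey (Chlorocebus sabaeus) amniotic fluid. Its members were the genes whose listed name is KRT followed by a number and at most 1 letter, which gave 45 of the 33994 genes in each file and left out the keratin-associated proteins. The fluid had been cleared of cells, and the RNA of its supernatant was amplified to cDNA by the SPIA chemistry and sequenced. There were 3 libraries, each from 1 pregnancy: 1 labelled stillborn (sex label M), 1 labelled spontaneous abortion (sex label NA) and 1 labelled alive (sex label F). The labels used here name no treatment, gestational age or maternal age. Where 3 values stand together, they follow the order stillborn, spontaneous abortion, alive. With 1 library per status, every comparison sets library against library. No p-value was computed, and a status cannot be told apart from the single pregnancy that stands for it.

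Keratins are the intermediate filament proteins of epithelial cells. A filament is built from pairs of chains, each pair made of an acidic type I and a basic type II keratin, and the choice of pair follows the kind of epithelium. Simple epithelia such as amnion, gut and collecting ducts use KRT8 and KRT18, and many add KRT19 or KRT7. The dividing basal layer of stratified epithelia uses KRT5 with KRT14 or KRT15, and cells that leave it switch to KRT1 and KRT10 in the epidermis or to KRT4 and KRT13 in the mouth and oesophagus. KRT6, KRT16 and KRT17 are induced in wounded or rapidly renewing epithelium, and a further set builds the hair shaft and its inner root sheath.

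Levels are given as RPKM, reads divided by the gene's length and by the library's assigned reads. Whole reads were recovered from these values, and the libraries held 17749954, 29926352 and 20220899 assigned reads. Reads are lower bounds, since a factor common to all libraries of a gene cannot be seen. Reads were found for 32, 36 and 34 of the 45 members. KRT2, KRT9, KRT36, KRT73, KRT74 and KRT76 had none in any library, among them the late epidermal KRT2 and the palm and sole keratin KRT9. Their absence allows at most 3 reads per library, counting error only. RPKM reached 1 in at least 1 library for 21 members and in every library for 19. The other 18 members with reads stayed under RPKM 1 throughout, with KRT16 the highest of them at 0.937 in the stillborn library.

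**Figure D1:**
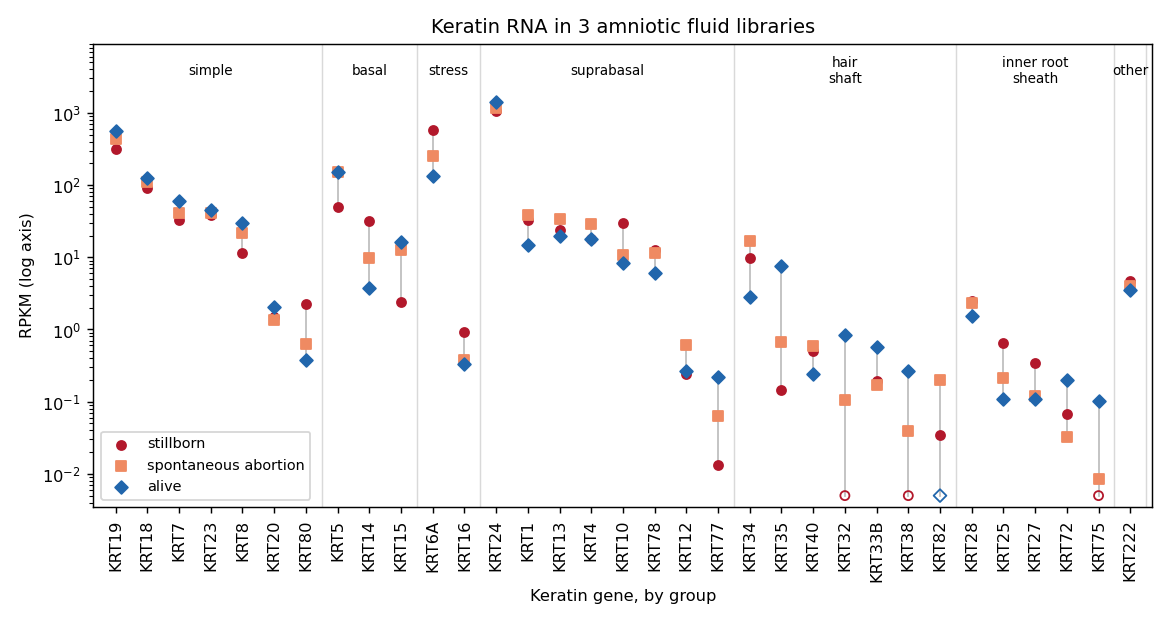
RPKM (log axis) of the keratins that reached RPKM 0.1 in any library, by group, with 1 point per library and a grey line from the lowest to the highest. Open symbols at the foot of the axis are libraries with 0 reads. KRT24 stands above all others in each library, and KRT35 spreads farthest among those with reads in all 3, from 0.147 to 7.47.

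The 45 keratins together held 0.545%, 0.633% and 0.664% of the summed RPKM of all genes. KRT24, a type I keratin of stratified epithelium with few known sites of expression, led the family in all 3. Its level was RPKM 1073, 1182 and 1437, which placed it at ranks 59, 45 and 42 among all genes. That was 45.2%, 49.1% and 54.4% of the summed keratin RPKM. KRT24 was 1.20-fold lower in the stillborn than in the alive library (95% interval 1.18 to 1.21), a narrow interval because it rests on 39027 and 59581 reads. It was thus among the keratins that differed least between the libraries while being the most abundant.

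The make-up of the rest differed more. Stress keratins held 24.8%, 10.6% and 5.11% of the keratin RPKM. Simple keratins held 20.7%, 27.0% and 30.9%, and basal keratins 3.51%, 7.18% and 6.46%. Suprabasal keratins other than KRT24 summed to RPKM 118, 124 and 66.9. Hair shaft keratins took 0.445%, 0.770% and 0.463%, and inner root sheath keratins 0.151%, 0.112% and 0.0787%. The stillborn fluid therefore carried a larger stress share and smaller simple and basal shares than either other fluid. Nearly all of the stress share was KRT6A, at 24.8%, 10.5% and 5.10%, with KRT16 at 0.0395%, 0.0159% and 0.0127%.

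**Figure D2:**
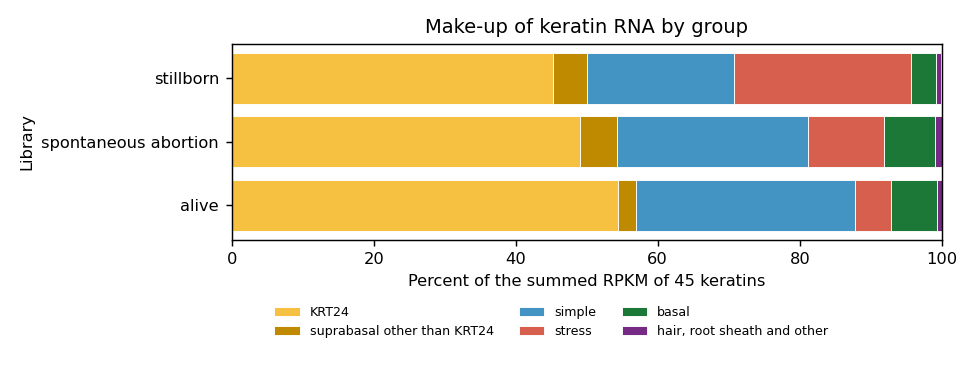
Share of the summed RPKM of the 45 keratins held by KRT24, the other suprabasal keratins and the remaining groups in each library (bars add to 100%). The stress segment shrinks from 24.8% for stillborn to 10.6% for spontaneous abortion and 5.11% for alive.

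Shares between genes rest on the gene lengths the authors divided by. These were recovered with the reads, and for 6 of the 35 members with both values they exceed the whole span of the gene in the current RefSeq table, introns included. The 6 were KRT5, KRT10, KRT15, KRT16, KRT38 and KRT79. For KRT16 the length was 12686 bases against a span of 3184, and for KRT5 8998 against 6059. Over all genes this held for 2845 of 18153. RPKM of such genes is low for their number of reads, while ratios of 1 gene between libraries do not depend on length. Counted as shares of keratin reads instead, which was chosen after seeing the data, stress keratins took 35.4%, 15.2% and 7.92% and basal keratins 7.91%, 21.5% and 21.1%. In reads KRT6A (42265) passed KRT24 (39027) in the stillborn library.

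KRT17, a stress keratin, is listed under a gene ID and so is no member, but its symbol was found in the RefSeq table. Its RPKM was 170.0, 349 and 511, an order opposite to that of KRT6A. With KRT17 and 3 further keratins listed by ID (KRT26, KRT81 and KRT86) in the sum, stress keratins held 29.8%, 21.9% and 20.5%. The stress group was thus not of 1 direction, and the gap between the libraries narrowed once KRT17 was counted. KRT6B and KRT6C are not among the names used here, and reads of such close copies cannot be told apart from those of KRT6A.

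Ratios between libraries are ratios of reads after TMM scaling (trimmed mean of M-values), with the exact 95% interval given the sum of both read numbers. A gene was counted as apart at a difference of 4-fold or more, if the interval left out 1 and the higher of both libraries held 30 reads or more. The amplification adds no molecular identifiers. Counting error alone is therefore covered, not the spread between pregnancies. A library with 0 reads was taken at 3 reads in the ratio. In fluid, fewer cells shedding a transcript and less of it per cell cannot be told apart.

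In stillborn against alive, 25 of the 45 members had 30 reads in 1 of the libraries. Of these, 5 were apart as higher, where 4.71% of all genes with such reads were, and 3 as lower, where 3.23% were. The higher ones were KRT6A, KRT10, KRT14, KRT25 and KRT80, and the lower ones KRT15, KRT35 and KRT38. On the scale of total reads KRT10 was 3.61-fold higher and no longer counted. In spontaneous abortion against alive, KRT34 was apart as higher (background 2.30%) and KRT35 and KRT38 as lower (1.51%). Between the losses, stillborn against spontaneous abortion, none was apart as higher (background 2.81%) and KRT15 and KRT35 were apart as lower (1.65%). Across the 30 members averaging RPKM 0.1 or more, the median log2 ratio was 0.09 for stillborn against alive and 0.13 for spontaneous abortion against alive, beside 0.00 and 0.01 over 16348 genes. Without the TMM factor, the first keratin median was -0.05, and that of all genes moved by -0.14.

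**Figure D3:**
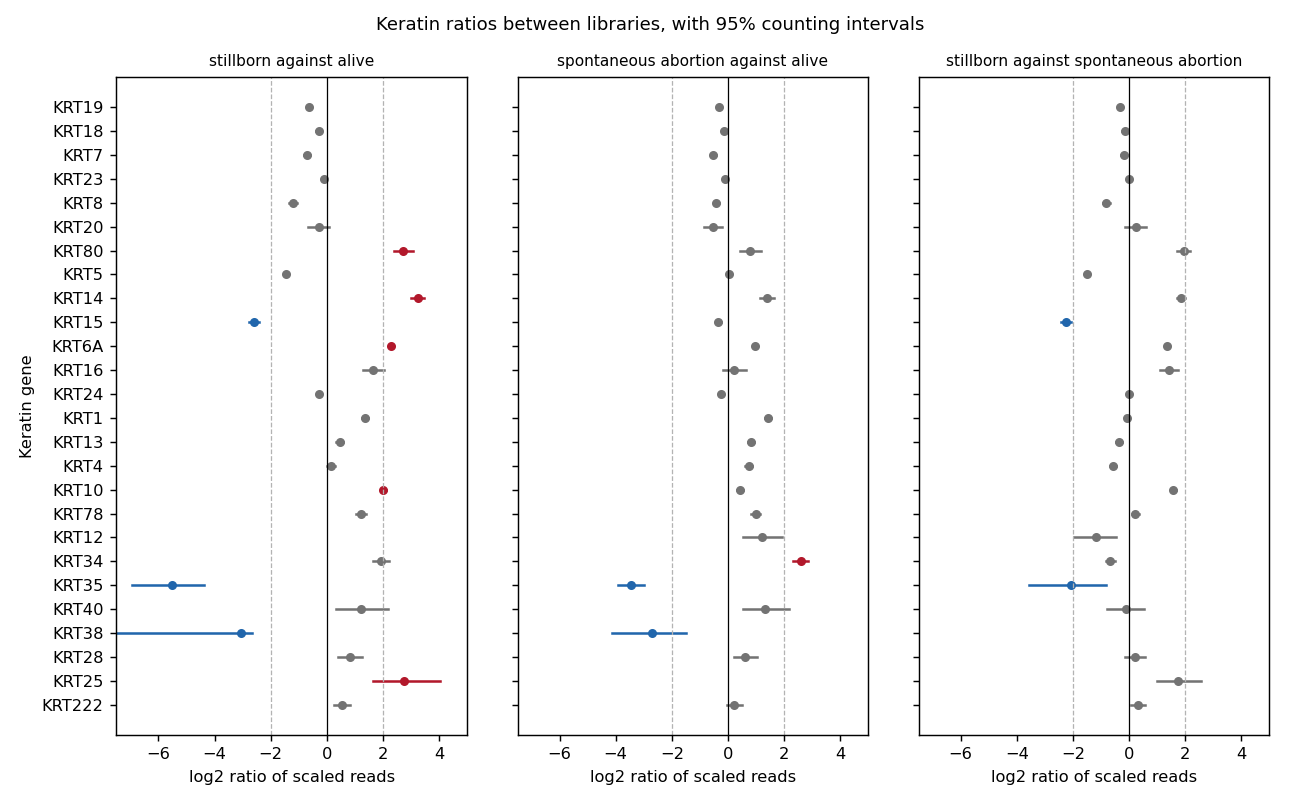
Log2 ratio of TMM-scaled reads for keratins with at least 30 reads in 1 of the libraries compared, with exact 95% counting intervals. Red and blue mark genes apart as higher and lower, dashed lines mark 4-fold, and the KRT38 interval against alive has no lower end because the stillborn library held 0 reads. In the first panel KRT14, KRT80, KRT25, KRT6A and KRT10 lie on the right and KRT15, KRT35 and KRT38 on the left.

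Simple epithelial keratins were led by KRT19, a tailless type I keratin, at RPKM 316, 434 and 554. KRT18 was at RPKM 90.4, 110.0 and 124, and its partner KRT8 at 11.4, 21.8 and 29.8. KRT7, a keratin of simple ducts and glands, was at 32.9, 40.8 and 60.5. The stillborn library was the lowest and the alive library the highest for all of KRT7, KRT8, KRT18 and KRT19. KRT8 was 2.33-fold lower in stillborn than in alive (2.11 to 2.57), KRT7 1.64-fold (1.53 to 1.76), KRT19 1.57-fold (1.53 to 1.61) and KRT18 1.22-fold (1.15 to 1.30). None of these 4 reached 4-fold. KRT23, a type I keratin of simple and tumour epithelia, was close in all 3, at 38.3, 41.5 and 45.7.

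KRT20, the keratin of intestinal epithelium and urothelial umbrella cells, was low at RPKM 1.48, 1.37 and 2.03. KRT80, a type II keratin found in most epithelia, went against the rest of the group at 2.22, 0.631 and 0.376. It was 6.60-fold higher in stillborn than in alive (5.22 to 8.43) and 3.83-fold higher than in the spontaneous abortion (3.24 to 4.53). Of the 7 simple keratins, 6 had a log2 ratio below 0 for stillborn against alive and the median was -0.29. The 6 include KRT20, at 1.22-fold lower (0.946 to 1.59). Over all genes, 8081 of 16348 lay below 0.

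Basal keratins split. KRT5 had 7841, 40620 and 27439 reads, and was 2.75-fold lower in stillborn than in alive (2.68 to 2.82). In spontaneous abortion against alive the ratio was 1.03 (1.01 to 1.04). KRT15, a basal keratin that partners KRT5 in fetal and stem cell compartments, was at RPKM 2.41, 12.5 and 16.3, so that the stillborn library lay well below both others. It was 6.04-fold lower in stillborn than in alive (5.31 to 6.90) and 4.76-fold lower than in the spontaneous abortion (4.19 to 5.43).

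KRT14, the other type I partner of KRT5, ran in the opposite order, at RPKM 31.7, 9.64 and 3.78. It was 9.39-fold higher in stillborn than in alive (8.05 to 11.0), 3.58-fold higher than in the spontaneous abortion (3.27 to 3.93), while spontaneous abortion exceeded alive 2.62-fold (2.23 to 3.09). Between KRT14 and KRT15, the higher level was thus that of KRT15 in the alive library and that of KRT14 in the stillborn library. KRT14 over KRT15, a pair looked at after the values were seen, was 13.2, 0.770 and 0.232 in RPKM. This ratio within a library needs no scaling. It was 56.7-fold higher in stillborn than in alive (Wald interval on the log scale 46.4 to 69.2).

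Partner pairs allow the same view across the family. KRT5 over KRT14 was 1.55, 15.7 and 39.9 in RPKM, and 5.69, 57.6 and 147 in reads. The length behind the RPKM of KRT5 exceeds its gene span, so the level of the RPKM ratio is uncertain. The ratio was 25.8-fold lower in stillborn than in alive (22.1 to 30.1), a change that does not depend on length. KRT8 over KRT18 was 0.127, 0.199 and 0.240, a 1.90-fold lower value in stillborn than in alive (1.70 to 2.13). By contrast, KRT7 over KRT19 stood at 0.104, 0.0940 and 0.109, with a stillborn against alive change of 1.05-fold lower (0.972 to 1.13). KRT4 over KRT13 stood at 0.752, 0.866 and 0.929. KRT6A over KRT16 was 627, 665 and 402 in RPKM, and 200.3, 212 and 129 in reads. That was 1.56-fold higher in stillborn than in alive (1.21 to 2.00). The simple and oral pairs and KRT6A with KRT16 kept their proportion within 2-fold, and the basal pair did not. Nor did the epidermal pair, as KRT1 over KRT10 was 3.15-fold lower in stillborn than in spontaneous abortion (2.92 to 3.39).

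**Figure D4:**
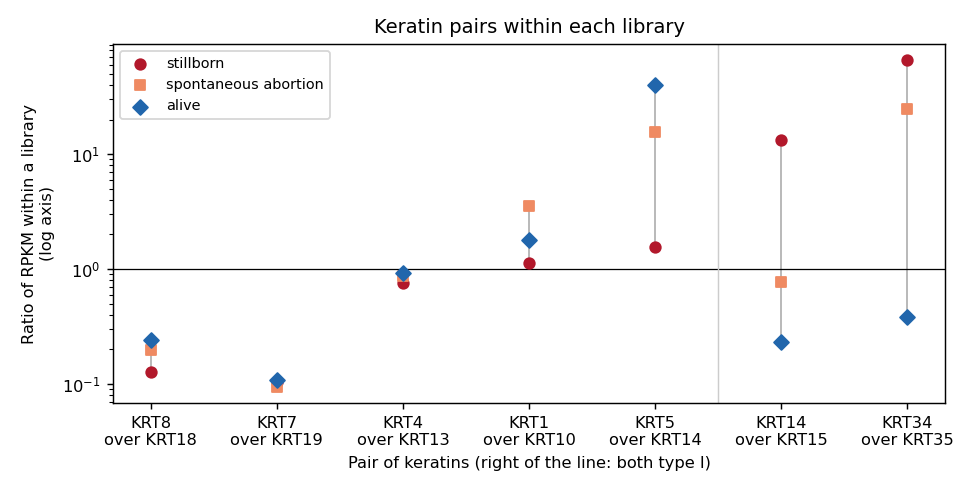
Ratio of RPKM of 2 keratins within each library (log axis), for 5 type II over type I partner pairs and, right of the line, 2 pairs of type I keratins. KRT7 over KRT19 lies between 0.0940 and 0.109, while KRT5 over KRT14 runs from 1.55 in the stillborn to 39.9 in the alive library.

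Among stress keratins, KRT6A was at RPKM 588, 254 and 135. The stillborn library was 4.87-fold above the alive one (4.77 to 4.98) and 2.52-fold above the spontaneous abortion (2.48 to 2.56). KRT16, the type I partner of KRT6, was at 0.937, 0.382 and 0.335 and in the same order, 3.13-fold higher in stillborn than in alive (2.42 to 4.07). KRT17, by gene ID, was 2.69-fold lower (2.61 to 2.77). KRT6A over KRT17, another pair chosen after the values were seen, was 3.46, 0.729 and 0.264 in RPKM. KRT6A was the higher of both in the stillborn library and the lower in the alive library, also in reads (ratios of 7.11 and 0.543). In the spontaneous abortion library the scales differed, since KRT6A had 30809 reads and KRT17 20555.

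Among suprabasal keratins other than KRT24, KRT1, KRT10, KRT13 and KRT78 had higher values in both losses than in the alive library, and KRT10 in the stillborn library was apart. KRT1, the type II keratin of the epidermal spinous layer, was at RPKM 33.2, 38.0 and 14.6, and 2.54-fold higher in stillborn than in alive (2.36 to 2.74). In spontaneous abortion against alive it was 2.68-fold higher (2.51 to 2.87). KRT10, its type I partner, was at 29.6, 10.8 and 8.21, which was 4.04-fold higher in stillborn than in alive (3.77 to 4.32) and 1.35-fold higher in the spontaneous abortion (1.26 to 1.45). The losses were thus alike in KRT1 and unlike in KRT10. KRT1 over KRT10 was 1.12, 3.52 and 1.78 in RPKM, and 0.585, 1.84 and 0.927 in reads. By reads KRT10 was thus the higher of both in the stillborn and alive libraries.

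The oral and oesophageal pair was highest in the spontaneous abortion library. KRT13 was at RPKM 24.0, 33.7 and 19.5 and KRT4 at 18.0, 29.2 and 18.1. Against the alive library, KRT4 was 1.66-fold higher in spontaneous abortion (1.53 to 1.79) and 1.12-fold higher in stillborn (1.01 to 1.23), a value that became 0.997 on the scale of total reads. KRT78, a type II keratin of stratified epithelia, was at 12.5, 11.6 and 6.01, and 2.33-fold higher in stillborn than in alive (2.05 to 2.64). Of the 7 suprabasal keratins averaging RPKM 0.1 or more, 6 had log2 ratios above 0 in each loss against alive, with medians of 0.46 for stillborn and 0.83 for spontaneous abortion. Over all 16348 genes, 8193 and 8279 lay above 0. The 6 include KRT12, with 20 reads in stillborn and 25 in alive and a ratio whose interval runs from 0.537 to 1.91. Both medians share the alive library, and the first was 0.09 with no floor on RPKM. The corneal keratin KRT12 had 20, 83 and 25 reads and its partner KRT3 had 0, 0 and 1. KRT77, a keratin of sweat gland ducts, had 1, 8 and 19 reads, and KRT79 had 0, 1 and 0.

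Hair shaft keratins were few in reads and did not share a direction. KRT35, a type I keratin of the hair matrix and early cortex, had 6, 46 and 347 reads, or RPKM 0.147, 0.669 and 7.47. It was 45.4-fold lower in stillborn than in alive (20.6 to 124) and 10.9-fold lower in spontaneous abortion (7.97 to 15.1). Between the losses, the stillborn value was 4.18-fold lower, with a lower bound of 1.78. KRT34, a type I keratin of the hair cortex, had 401, 1168 and 135 reads, or RPKM 9.67, 16.7 and 2.86. KRT34 was 6.01-fold higher in spontaneous abortion than in alive (5.02 to 7.24) and 3.79-fold higher in stillborn (3.11 to 4.64). The alive library was thus the highest for one and the lowest for the other: KRT34 over KRT35, also paired after the values were seen, was 65.7, 24.9 and 0.382.

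KRT32, of the hair cuticle, had 0, 3 and 16 reads and KRT38 had 0, 7 and 32, both in the order of KRT35. KRT38 was 8.37-fold lower in stillborn than in alive with its 0 reads taken as 3, and the exact interval for 0 reads begins at 6.42-fold. It was 6.58-fold lower in spontaneous abortion (2.85 to 17.7). Neither call held when libraries were thinned to the smallest total. KRT33B had 8, 12 and 27 reads, KRT40 31, 61 and 17, and KRT39 1, 7 and 0. The type II hair chains found had few reads: KRT82 had 3, 29 and 0 reads, KRT84 0, 0 and 1, and KRT85 0, 1 and 0. KRT86, by gene ID, had 0, 0 and 1, and KRT81 none in any library. KRT83, another type II hair keratin, was not found by name or ID, so its RNA could not be judged.

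Inner root sheath keratins were also few in reads. KRT28 had 110, 175 and 79 reads, or RPKM 2.48, 2.34 and 1.56. KRT25 had 42, 23 and 8 reads and was 6.69-fold higher in stillborn than in alive (3.10 to 16.5), while KRT27 had 22, 13 and 8. All 3 are type I and were highest in RPKM in the stillborn library. Of the type II members, KRT71 had 7, 0 and 0 reads, KRT72 5, 4 and 17, and KRT75 0, 1 and 8, while KRT73 and KRT74 had none. In the alive library KRT72 (RPKM 0.202) stood above KRT25 (0.109) and KRT27 (0.108). KRT222, a short keratin-like gene outside the classical groups, was at RPKM 4.63, 4.06 and 3.55.

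Summed over the family, the 23 type I keratins reached RPKM 1621, 1858 and 2225, and the 21 type II keratins 747, 547 and 416. Type I over type II was 2.17, 3.39 and 5.35. Without KRT24, the leading type I gene, it was 0.734, 1.23 and 1.90. Without KRT6A, the leading type II gene of the stillborn library, it was 10.2, 6.33 and 7.93, so that the stillborn library went from the lowest ratio to the highest. In reads the ratio was 1.14, 1.43 and 2.12, and 4.67, 2.28 and 2.80 without KRT6A. The order of the libraries in the summed ratio thus rested on KRT6A. Leaving out either gene was chosen after seeing the data. With the 4 genes listed by ID added and KRT6A included, the ratio was 2.40, 4.03 and 6.58.

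Keratin genes lie in a type I and a type II cluster, and their order was read from RefSeq's gene table (assembly mChlSab1.0.hap1), where 41 of the 45 members were found by symbol. The files name no build, and coordinates are left out. KRT35, KRT32 and KRT38 follow each other there with no other protein-coding gene among them, and all 3 had their fewest reads in the stillborn and their most in the alive library. KRT34 is the next gene with a keratin symbol, after 3 protein-coding genes, and had the other pattern. Keratins without such a symbol would be missed in this order. KRT17, KRT16 and KRT14 are direct neighbours, with log2 ratios for stillborn against alive of -1.43, 1.65 and 3.23. KRT19, KRT15 and KRT13, also direct neighbours, were at -0.65, -2.59 and 0.46. Another run, KRT10, KRT28, KRT27, KRT26 and KRT25, held 4 members with positive values, KRT10 at 2.01, KRT28 at 0.83, KRT27 at 1.81 and KRT25 at 2.74, and KRT24 next to it had -0.26. Neighbours thus lay on the same side of 0 in some stretches and on opposite sides in others.

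Among 11 measured genes that anchor or bundle keratin filaments, 10 had 30 recovered reads in a library. Of these, 0 were apart in any of the 3 comparisons, beside 1.51% to 4.71% of all genes per comparison and direction. DSP, the desmoplakin that ties keratin to desmosomes, was at RPKM 18.9, 34.3 and 51.9, and JUP, plakoglobin, at 15.3, 32.4 and 37.1. These are in the order of KRT8. PKP1, a plakophilin of suprabasal cells, was at 7.04, 5.10 and 3.60, in the order of KRT10. PKP2 at 81.5, 111 and 98.5 and PPL at 53.7, 58.3 and 51.0 followed neither order. Both orders are common, held by 25.1% and 24.4% of 16348 genes on the TMM scale, so a shared order links no anchor to a keratin. The list's median log2 ratio was -0.15 for stillborn against alive.

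Of 18 other intermediate filament genes, 10 had 30 reads in stillborn or alive. Of these 10, 2 were apart as lower, beside 3.23% of all genes, and 0 as higher, beside 4.71%. NES, nestin of progenitor cells, had 49, 174 and 479 reads and was 7.67-fold lower (5.71 to 10.5). LMNB1, a nuclear lamin of dividing cells, had 147, 894 and 894 reads and was 4.77-fold lower. SYNM alone of 11 was apart in spontaneous abortion against alive, lower at 5.13-fold (2.90 to 9.57), beside 1.51% of all genes. GFAP, with 2, 40 and 10 reads, alone of 9 was apart in stillborn against spontaneous abortion. It was lower at 10.9-fold (2.83 to 93.1), beside 1.65% of all genes. VIM, the mesenchymal filament, was above every keratin, KRT24 included, at RPKM 3212, 3345 and 2231. LMNA, the general nuclear lamin, was at RPKM 14.0, 29.9 and 45.4. That is the order of KRT8 and KRT15, and of 25.1% of 16348 genes on the TMM scale.

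The highest of the 14 hair follicle genes was GATA3, a transcription factor also of other epithelia, at RPKM 46.3, 61.1 and 48.8. SOX9, likewise of many tissues, was at 11.0, 19.6 and 12.7. Of the 7 with 30 reads, 1 was apart as higher in stillborn against alive, beside 4.71% of all genes. It was LEF1, a WNT transcription factor of the hair germ, at RPKM 0.730, 0.136 and 0.154. LGR5, a hair follicle stem cell receptor, had 2, 40 and 4 reads. In spontaneous abortion against alive, 8 had 30 reads and LGR5 alone was apart, higher at 6.95-fold (2.51 to 26.7), beside 2.30% of all genes. In stillborn against spontaneous abortion, 8 had 30 reads. LEF1 was apart as higher at 5.86-fold (4.60 to 7.52), beside 2.81% of all genes. LGR5 was apart as lower at 10.9-fold (2.83 to 93.1), beside 1.65%. The genes closest to the hair shaft had few reads. HOXC13, which controls hair keratins, had 9, 3 and 1 reads, and TCHH, trichohyalin of the inner root sheath, 12, 9 and 0. Of 27 keratin-associated proteins, which embed hair keratins, 23, 20 and 23 had no reads. KRTAP4-2, the only one with 30 reads in stillborn or alive, had 46, 37 and 13 reads. It was apart as higher in stillborn against alive, beside 4.71% of all genes.

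Markers of other cell types were measured in the same libraries. The 8 leukocyte markers summed to RPKM 50.5, 13.5 and 12.7. All 8 had 30 reads in stillborn or alive, and 4 were apart as higher in stillborn against alive. Of all genes with such reads, 4.71% were. S100A8 had 65, 8 and 0 reads. The markers did not all move alike, and CD14 had a ratio of 1.03 in stillborn against alive (0.675 to 1.58). Of the 5 with 30 reads in spontaneous abortion or alive, CD14 alone was apart. It was lower in spontaneous abortion at 8.48-fold (4.15 to 19.6), beside 1.51% of all genes. The 8 mesenchymal markers summed to 3516, 3681 and 2472. Most of each sum was VIM, at 3212, 3345 and 2231, so the sums say little of the other markers. Of the 7 with 30 reads, THY1 alone was apart in stillborn against alive, as lower, beside 3.23% of all genes. The 4 melanocyte markers summed to 3.29, 2.57 and 3.35, and 0 of the 2 with 30 reads were apart. The 6 general epithelial markers, EPCAM and CDH1 among them, summed to 38.1, 36.7 and 34.8. None of these 6 was apart in any comparison, beside 1.51% to 4.71% of all genes per comparison and direction. The part of leukocyte or mesenchymal RNA in the keratin differences was not tested.

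Across the 30 keratins averaging RPKM 0.1 or more, the spontaneous abortion library lay between the other two for 19 on the TMM scale, 9 with the stillborn library lowest and 10 with it highest. Over the 16348 genes above that level, 4111 and 3986 had these orders. Spontaneous abortion was the highest for 7 keratins, among them KRT1, KRT4, KRT5, KRT13 and KRT34, and the lowest for 4.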

How the data were processed

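Extraction used a circulating nucleic acid kit and DNase, and amplification by SPIA preceded sequencing on a HiSeq2500, per the labels' protocols. STAR, HTSeq and bcl2fastq 2.17 appear in the submitters' processing notes. Aligner and counter versions, build, annotation and strandedness were not given in the sources used here. Deposited values were taken as RPKM from their form, and no label names the unit or the step that made them.

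Totals, lengths and reads were solved for as the whole numbers that give all printed digits, and 99.97% of the 23276 genes above 0 came out whole. Recovered reads made up 96.6% to 97.1% of the totals. On simulated data with known reads, 3 of 3 totals came back exactly, 93.0% of 17181 genes had the right reads and 0 lay above the truth. In stillborn against alive simulated over 23268 genes, 100% of 200 genes changed 8-fold were found. These 200 were drawn from genes well above the read minimum, with counting error only. Calls near the fold or read limits were thus not tried.

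TMM factors were 0.936, 1.02 and 1.05 (stillborn, spontaneous abortion, alive). Medians use TMM-scaled log2(RPKM + 0.1), which understates ratios of low genes. Wald intervals use the 4 read numbers of a pair. Keratins are named with their values if RPKM reached 1 or they were apart, others by reads. Members and lists were chosen with earlier results of these data known. Python 3.11.15 and scipy 1.17.1 were used.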

Additional observations from a re-analysis of the deposited data

How the results depend on the processing

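Of 138 single keratin ratios recomputed under total reads or median-of-ratios scaling, 137 kept their call, and 2 moved across 1, KRT4 in stillborn against alive (0.997) and KRT23 in stillborn against spontaneous abortion (0.923). Total reads shifted the median of all genes by -0.14 for stillborn against alive and -0.11 for stillborn against spontaneous abortion, and the keratin medians went to -0.05 and -0.16. With a minimum of 10 reads, 5 keratins were lower in stillborn against alive (719 of all genes), and 2 were higher (641) and 4 lower (501) in spontaneous abortion against alive. With a fold of at least 2, the genes tested stayed the same, 25 keratins in each comparison. In stillborn against alive, 10 were higher (1769 of 13496 genes) and 5 lower (1685). In spontaneous abortion against alive, 5 were higher (1064 of 13851). In stillborn against spontaneous abortion, 6 were higher (1045 of 13855) and 4 lower (1036). For the minimum of 10 reads and the thinned libraries, the number of genes tested is not given here, so those counts stand without a share. Thinned to the smallest total, 1 keratin, KRT35, was lower in spontaneous abortion against alive (185 of all genes), and 2, KRT15 and KRT35, in stillborn against alive (403), so that KRT38 was no longer apart in either. These changes follow from the construction of each setting. Median-of-ratios factors changed no count of keratins. No paired analysis was possible because each status has 1 sample, and for the same reason no replicate could be left out. Depth limits the hair and root sheath keratins, most of which had under 30 reads in a library.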
